A study of Homo sapiens with 6 samples.

Results

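NRF2, the transcription factor encoded by *NFE2L2*, its repressor KEAP1 and 8 target genes were followed by RNA sequencing through the differentiation of human pluripotent stem cells into definitive endoderm (DE). The members were taken by gene symbol from the deposited count table and make up 10 of the 59050 genes listed: the factor *NFE2L2*, the repressor *KEAP1*, and the targets *NQO1*, *HMOX1*, *GCLC*, *GCLM*, *GSR*, *GPX4*, *TXNRD1* and *SRXN1*. *NFE2L2* was chosen by its own counts, for being higher in DE than in stem cells, so its levels are a description with no test. The other 9 were chosen as its repressor and as known targets. The question was whether the RNA of its targets followed. Of the 10 members, 9 passed the filter on low counts, and *SRXN1* did not.

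NRF2 is a basic leucine zipper factor of the cap'n'collar (CNC) family that pairs with small MAF proteins and binds the antioxidant response element in the control regions of genes for glutathione, thioredoxin, quinone and haem metabolism. In unstressed cells KEAP1 holds NRF2 and hands it to a CUL3 ubiquitin ligase for degradation by the proteasome. Oxidants and electrophiles modify cysteines of KEAP1 and let newly made NRF2 reach the nucleus. The pathway is therefore set largely at the level of the protein, which RNA counts do not measure.

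The cells were those of HUES8, a human embryonic stem cell line, sampled in 3 stages with 2 libraries each. The stem cells (PSC) were kept undifferentiated in mTeSR1 on Matrigel. The D2 cells, at day 2, and the DE cells were cultured in DMEM-F12 with bovine serum albumin and activin A at 100 ng/mL, with CHIR99021, an inhibitor of GSK3 that turns on WNT signalling, for the first 24 h and without it afterwards. The labels carry the same text for every library and give the time without CHIR99021 as 2 to 4 days, which fits the course to DE and is longer than the D2 cells can have had, and the study's methods give a span that differs slightly. The labels write the CHIR99021 dose as 2.5 mM, a unit that may be a misprint, and name no day for the DE libraries. The libraries held 12351684 and 15849872 counts in PSC, 15000970 and 14843365 at D2, and 15490713 and 15970973 in DE, in the order of their replicate numbers. The RNA was what remained after metabolites had been drawn from replicate samples of cells, but which of those samples gave the 2 libraries of a stage is not stated in the sources used here, so p-values measure only the spread between these libraries. The endoderm markers followed the labels, and most of the pluripotency markers did. The summed level of 9 endoderm markers, *CER1* with the highest CPM, was 10.2 and 11.97 CPM in the PSC libraries, 3805 and 3827 CPM at D2, and 6837 and 7500 CPM in DE, while the sum of 8 pluripotency markers went from 2214 and 2546 CPM in PSC to 1507 and 1424 CPM in DE. Of these 8, 6 were called lower in DE, beside 32.7% of all genes, among them *POU5F1*, from 420 and 540 to 131 and 135 CPM, and *SOX2*, from 151 and 152 to 26.8 and 29.9 CPM. The other 2 were called higher, beside 35.1% of all genes, *LIN28A*, from 295 and 390 to 678 and 575 CPM, and *TDGF1*, from 302 and 340 to 459 and 485 CPM, and they made up most of the sum in DE. All levels are counts per 1000000 counts (CPM) after TMM normalization, which evens out differences in composition between libraries. Adjusted p-values, unless DESeq2 is named, come from the quasi-likelihood test of edgeR, corrected by the Benjamini-Hochberg method over all 18126 genes tested, and each is followed by the tool's name. In bulk RNA, fewer cells of a type and less RNA per cell cannot be told apart.

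The core of the antioxidant response element, TGACNNNGC, was searched on both strands of the RefSeq promoter windows of build GRCh38.p14, which run from 250 bases before to 50 bases after an annotated start. Windows were given for 8 of the 10 members, 13 windows in all, and 3 of these 8 genes held the core in 4 windows. Bases outside the windows were not searched, so a gene without a match may hold the core farther from its start. For comparison, 16.1% of the 27305 genes with a window held it, and 13.3% of the 35116 windows. The matches in *KEAP1*, *GCLM* and *TXNRD1* are shown with 10 bases on each side, and capitals mark the core. They are the matches in the members' windows for which the 10 bases on each side also lay within the window. Those of *GCLM* (chr1:93909446-93909474, plus strand, antisense to the gene), *KEAP1* (chr19:10502784-10502812, plus strand, antisense, and chr19:10502807-10502835, minus strand, sense) and *TXNRD1* (chr12:104215670-104215698, plus strand, sense, chr12:104215761-104215789, minus strand, antisense, and chr12:104286920-104286948, minus strand, antisense) read, 5′ to 3′:
GCLM: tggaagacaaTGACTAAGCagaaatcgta
KEAP1, match 1: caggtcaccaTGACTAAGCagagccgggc
KEAP1, match 2: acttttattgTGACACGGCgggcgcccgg
TXNRD1, match 1: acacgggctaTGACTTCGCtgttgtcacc
TXNRD1, match 2: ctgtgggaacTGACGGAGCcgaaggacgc
TXNRD1, match 3: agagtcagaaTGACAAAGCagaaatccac

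The cores of *GCLM* and of match 1 of *KEAP1* match in all 9 letters, centred 30 and 27 bases before the start. The repressor of NRF2 and a gene activated by it thus held the same letters at a like distance. A match is a description of letters, not a site of binding. Among 62 other target genes with a window, 20 held the core, and 4 of these held TGACTCAGC, the spelling seen in 197 of all 35116 windows. They are shown because their RNA is described further on. They belong to *GSTP1* (chr11:67583736-67583764, plus strand), *SLC3A2* (chr11:62881652-62881680, plus strand), *ME1* (chr6:83431170-83431198, minus strand) and *PIR* (chrX:15493289-15493317, plus strand), sense to the gene in the first 3 and antisense in *PIR*:
GSTP1: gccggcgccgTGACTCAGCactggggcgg
SLC3A2: cgagggtgggTGACTCAGCgtcctccttc
ME1: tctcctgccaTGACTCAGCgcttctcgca
PIR: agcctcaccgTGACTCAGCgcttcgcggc

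*NFE2L2* was at 34.9 and 32.2 CPM in the 2 PSC libraries, at 47.2 and 40.3 CPM at D2, and at 156 and 184 CPM in DE. The level was low in the stem cells, slightly higher at day 2 and several times higher in DE, and the libraries of the 3 stages did not overlap. The fitted log2 fold change was 2.34 for DE against PSC (5.08-fold), 0.39 for D2 against PSC (1.31-fold) and 1.96 for DE against D2 (3.88-fold). Most of the difference thus lay after day 2. Leaving out any 1 library kept the DE against PSC value between 2.24 and 2.47. The gene lies on the minus strand at chr2:177218667-177392756 (GENCODE release 44, build GRCh38), where 3509 of its 14975 annotated exonic bases also belong to *HNRNPA3* on the opposite strand, and reads there cannot be told apart without strand. The length given in the count table is 5671 bases, so the reads were counted over a shorter model of *NFE2L2* than this annotation holds, while *KEAP1* and the relatives *NFE2L1*, *NFE2L3* and *BACH1* had the same length in both. *HNRNPA3*, an RNA-binding protein gene, was at 649 and 658 CPM in PSC and at 630 and 648 CPM in DE, where it did not pass the test (log2 fold change -0.03).

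**Figure D1:**
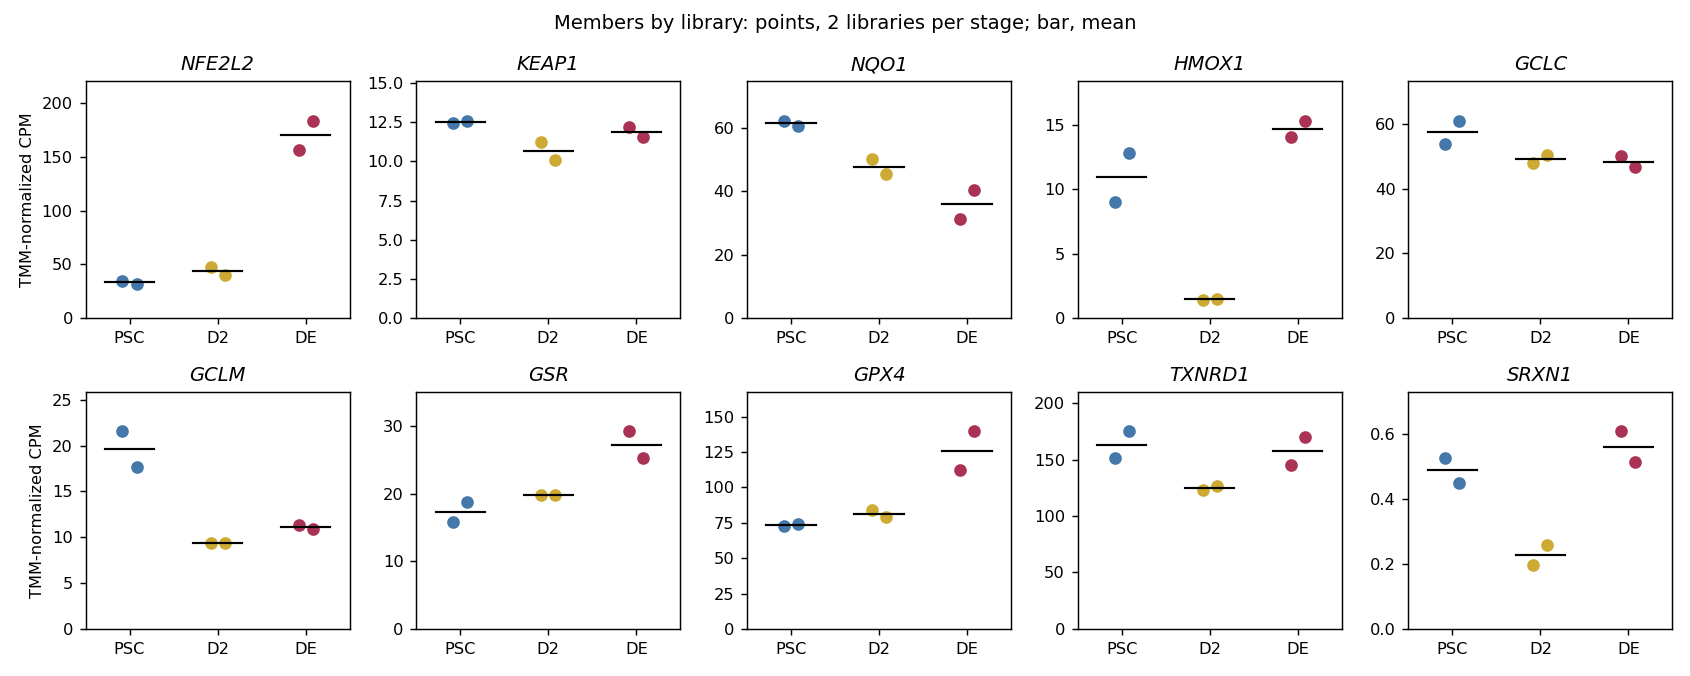
TMM-normalized CPM of the 10 members in each library, on a linear axis from 0 in every panel; points are the 2 libraries of a stage (PSC, D2, DE) and bars their mean. *NFE2L2* stood at 156 and 184 CPM in DE against 34.9 and 32.2 CPM in PSC, *KEAP1* stayed between 10.1 and 12.6 CPM, and *HMOX1* dropped to 1.44 and 1.49 CPM at D2.

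The genes whose pattern over the 6 libraries was most like that of *NFE2L2* were sought among 8682 genes with a mean of at least 10 CPM, by the root-mean-square difference of the centred log2 levels. They were *OPTN* (0.0746), an autophagy receptor gene, *PGM1* (0.0931), which encodes a phosphoglucomutase, *TPST1* (0.0969), for a tyrosine sulphotransferase of the Golgi, and *UNC50* (0.123). *OPTN*, the nearest, was at 6.05 and 6.50 CPM in PSC, 9.84 and 7.71 CPM at D2 and 31.9 and 37.7 CPM in DE. The members themselves stood far down this order, with *GPX4* nearest at place 1336 (0.689), *GSR* at 1829 (0.772) and *NQO1* farthest at 7053 (1.32). *HMOX1* and *SRXN1* were under the level needed to enter it.

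*KEAP1*, the repressor, stayed close to 1 level at all stages. It lies at chr19:10486125-10503558 on the minus strand. Its level was 12.4 and 12.6 CPM in PSC, 11.2 and 10.1 CPM at D2, and 12.2 and 11.6 CPM in DE. *KEAP1* passed the test in none of the 3 comparisons: its log2 fold change in DE against PSC was -0.08 (95% confidence interval -0.37 to 0.22, adjusted p = 0.65, edgeR). With library size scaling the value was 0.0158, so no direction is given. Per length of transcript, the ratio of *NFE2L2* to *KEAP1* levels was 1.77 and 1.61 in PSC, 2.65 and 2.52 at D2, and 8.09 and 9.997 in DE, with the lengths of the count table. With the GENCODE exonic lengths, an alternative chosen after seeing the data, the same ratio was lower. It was then 0.669 and 0.610 in PSC, 1.003 and 0.953 at D2, and 3.06 and 3.79 in DE. The reads of *NFE2L2* were counted over 5671 bases, not over the 14975 of GENCODE. This alternative therefore divides them by bases that were not counted, which lowers the ratio. The order of the 2 genes in PSC was not tested. The increase of the ratio restates that of *NFE2L2*, for which the gene was chosen.

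The targets did not follow *NFE2L2* together. In DE against PSC, 3 of the 7 targets tested were higher, *HMOX1*, *GSR* and *GPX4*, 3 were lower, *NQO1*, *GCLC* and *GCLM*, and *TXNRD1* did not pass the test. Taken with *KEAP1*, 3 of 8 genes were higher and 3 lower, against 35.1% of all 18126 genes tested that were called higher and 32.7% called lower at an adjusted p under 0.05. The 8 were split 3 higher and 2 lower with library size scaling, and 2 higher and 3 lower with upper quartile scaling. By edgeR, none of the 8 changed 2-fold or more in either direction, and the count was also 0 by DESeq2 and at an unadjusted p under 0.05, while 20.5% of all genes were higher and 18.8% lower by that much. The median log2 fold change of the 8 was -0.07, and that of all genes tested was 0.02. At the same comparison *NFE2L2* stood at 2.34.

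At day 2 several of the targets were at their lowest. In D2 against PSC none of the 8 genes was higher, with a count of 0 also at an unadjusted p under 0.05 in edgeR and by DESeq2, against 25.9% of all genes, and 4 were lower, *NQO1*, *HMOX1*, *GCLM* and *TXNRD1*, against 24% of all genes. Of these, *HMOX1* and *GCLM* were lower by 2-fold or more, as were 8.03% of all genes. From D2 to DE 4 of the 8 were higher, *HMOX1*, *GSR*, *GPX4* and *TXNRD1*, against 30% of all genes, and 1 was lower, *NQO1*, against 29.3%. *HMOX1* alone rose 2-fold or more, as did 12.4% of all genes, and none fell that far by edgeR, DESeq2 or at an unadjusted p, against 16.1%. The comparisons share libraries, so a low or high D2 value enters both of them. The median over the 8 was -0.30 in D2 against PSC and 0.30 in DE against D2, beside 0.02 and -0.02 over all genes.

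**Figure D2:**
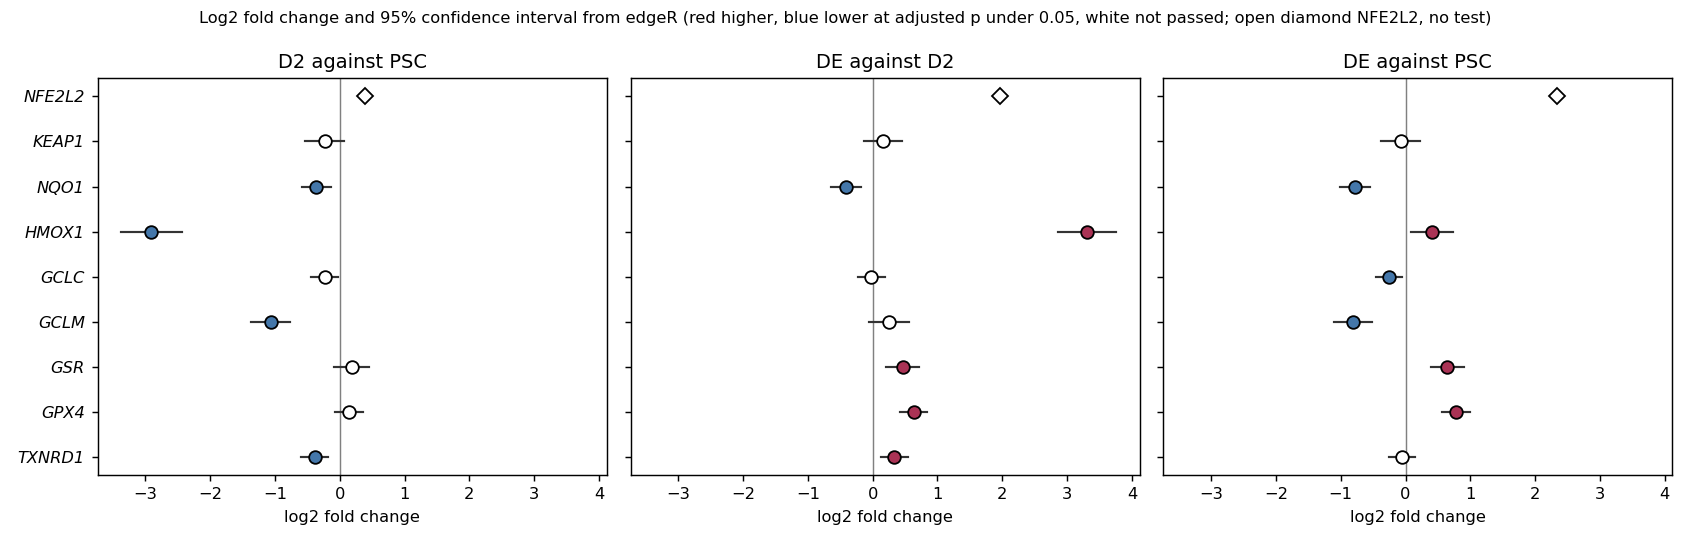
Log2 fold change (x axis) of *KEAP1* and the 7 tested targets in 3 comparisons, with 95% confidence intervals from the edgeR fit; red is higher and blue lower at an adjusted p under 0.05, white did not pass, and the open diamond is *NFE2L2*, which has no test. *NFE2L2* lies at 2.34 in DE against PSC, while the 8 other genes lie between -0.81 and 0.78.

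*HMOX1* encodes the inducible haem oxygenase that breaks haem down to biliverdin, iron and carbon monoxide. Among the 7 member targets tested, it moved most in D2 against PSC and in DE against D2, though not in DE against PSC. It was at 9.03 and 12.8 CPM in PSC, at 1.44 and 1.49 CPM at D2, and at 14.0 and 15.3 CPM in DE. Its RNA was thus lowest at day 2 and higher on either side, and no library of D2 overlapped another stage. It fell 7.50-fold in D2 against PSC (log2 fold change -2.91, standard error 0.23, adjusted p = 1.9e-11, edgeR). It rose 9.94-fold in DE against D2 (3.31, standard error 0.22, adjusted p = 3.0e-13, edgeR). Against PSC it was 1.32-fold higher in DE (0.41, adjusted p = 0.0269, edgeR). That log2 fold change was 0.20 without PSC replicate 1 and 0.70 without PSC replicate 2, so its size rests on which PSC library is kept. The call was lost with DESeq2 (adjusted p = 0.133), with upper quartile scaling (0.23, adjusted p = 0.195 in edgeR), and in edgeR without PSC replicate 1 (0.36) or DE replicate 2 (0.125). The gene lies at chr22:35380361-35394214 on the plus strand and shares no annotated bases with another gene.

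*NQO1*, for the quinone reductase often used as a readout of NRF2, went down step by step. Its levels were 62.4 and 60.5 CPM in PSC, 50.1 and 45.5 CPM at D2, and 31.4 and 40.5 CPM in DE. The 3 stages did not overlap, and the order was opposite to that of *NFE2L2*. It was 1.71-fold lower in DE than in PSC (log2 fold change -0.77, standard error 0.11, adjusted p = 7.2e-07, edgeR), and this held in every setting tried. The smaller steps, -0.36 in D2 against PSC (adjusted p = 0.00737, edgeR) and -0.41 in DE against D2 (adjusted p = 0.00251, edgeR), were less firm. The first was lost with library size scaling (0.0809) or without D2 replicate 2 (0.0906), and the second without DE replicate 1 (log2 fold change -0.22, adjusted p = 0.117, edgeR).

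Glutamate-cysteine ligase, the rate-limiting enzyme of glutathione synthesis, has a catalytic subunit encoded by *GCLC* and a modifier subunit encoded by *GCLM*. Both were called lower in DE than in PSC, and the difference between the 2 genes was not tested. *GCLM* was at 21.6 and 17.7 CPM in PSC, at 9.32 and 9.32 CPM at D2, and at 11.3 and 10.9 CPM in DE. It fell 2.09-fold in D2 against PSC (log2 fold change -1.07, standard error 0.14, adjusted p = 5.8e-07) and stayed 1.75-fold lower in DE (-0.81, standard error 0.14, adjusted p = 1.3e-05, both edgeR). *GCLC* was at 53.9 and 61.0 CPM in PSC, at 47.9 and 50.2 CPM at D2, and at 49.9 and 46.6 CPM in DE. In D2 against PSC *GCLC* did not pass the test (log2 fold change -0.23, adjusted p = 0.0592, edgeR), though both D2 libraries lay below both PSC libraries. It gained a call there in edgeR with DESeq2 size factors (adjusted p = 0.0436) or with the 2 compared stages alone (0.0485). It was 1.19-fold lower in DE than in PSC (log2 fold change -0.25, adjusted p = 0.0281, edgeR), a small difference that lost its call in 5 of 15 other settings, among them DESeq2 (adjusted p = 0.0628), library size scaling (0.25 in edgeR) and edgeR without PSC replicate 2 (log2 fold change -0.15, adjusted p = 0.341) or DE replicate 2 (0.157). Per length, *GCLC* exceeded *GCLM* by 1.57 and 2.17 times in PSC, 3.24 and 3.39 times at D2 and 2.78 and 2.69 times in DE.

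The 2 members that use or renew glutathione, *GSR* and *GPX4*, were higher in DE. *GSR*, for the reductase that turns oxidized glutathione back, was at 15.9 and 18.8 CPM in PSC, at 19.8 and 19.8 CPM at D2 and at 29.3 and 25.3 CPM in DE. It rose 1.57-fold in DE against PSC (log2 fold change 0.65, standard error 0.13, adjusted p = 5.9e-05, edgeR). *GPX4*, the glutathione peroxidase that reduces lipid hydroperoxides and guards cells from ferroptosis, was at 72.6 and 74.3 CPM in PSC, at 83.7 and 78.7 CPM at D2 and at 112 and 140 CPM in DE. It rose 1.71-fold in DE against PSC (0.78, standard error 0.10, adjusted p = 2.0e-07, edgeR). For both genes the DE libraries lay above all others, neither passed the test between PSC and D2 (adjusted p = 0.246 for *GSR* and 0.26 for *GPX4*, edgeR), and the rise in DE held in every setting tried. A rule of a 2-fold ratio of mean length-scaled read shares (TPM), of the kind used in the study, put *GPX4* just over its line at 2.02, and at 1.6 once genes encoded by mtDNA were left out, whose share of counts went from 29.4% and 27.6% in PSC to 20.9% and 22.8% in DE.

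*TXNRD1*, for the cytosolic thioredoxin reductase, dipped at day 2 and returned. It was at 151 and 175 CPM in PSC, at 123 and 127 CPM at D2 and at 146 and 170 CPM in DE, where its libraries overlapped those of PSC. The log2 fold change was -0.39 in D2 against PSC (adjusted p = 0.00228), 0.33 in DE against D2 (adjusted p = 0.0058) and -0.05 in DE against PSC (95% confidence interval -0.26 to 0.15, adjusted p = 0.654, all edgeR). The last value was 0.0338 with library size scaling, so its sign is not settled. The fall was lost without PSC replicate 2 (0.0831), and the return without D2 replicate 1 (0.0529), without DE replicate 2 (0.0679) or with upper quartile scaling (0.176, all edgeR). *SRXN1*, for sulfiredoxin, which repairs overoxidized peroxiredoxins, had 6 and 7 counts in PSC, 3 and 4 at D2 and 10 and 8 in DE. These counts were under the filter. In the edgeR fit without a filter, over 37829 genes, its log2 fold change in DE against PSC was 0.22 (95% confidence interval -1.01 to 1.46, adjusted p = 0.862, edgeR), and *SRXN1* passed the test in neither of the other comparisons (adjusted p = 0.378 in D2 against PSC and 0.176 in DE against D2, edgeR). A 2-fold difference in either direction lies within that interval, so none was detectable at this depth, and 2292 of its 2528 annotated exonic bases also belong to a readthrough gene on the same strand, so its low count is uncertain.

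Compared per kb of transcript, with the lengths of the count table, the order of the members shifted. In PSC the levels ran *GPX4* (36.4 CPM per kb), *TXNRD1* (24.3), *NQO1* (20.7), *GCLC* (6.67), *NFE2L2* (5.92), *GSR* (4.81), *HMOX1* (4.75), *GCLM* (3.62), *KEAP1* (3.51) and *SRXN1* (0.181). The libraries of neighbours overlapped for *GSR* and *HMOX1*, for *HMOX1* and *GCLM*, and for *GCLM* and *KEAP1*, so the order among these was not resolved. In DE the levels ran *GPX4* (62.3 CPM per kb), *NFE2L2* (30.0), *TXNRD1* (23.5), *NQO1* (12.1), *GSR* (7.57), *HMOX1* (6.38), *GCLC* (5.602), *KEAP1* (3.32), *GCLM* (2.05) and *SRXN1* (0.208), with no overlap between neighbours. By these lengths *NFE2L2* went from place 5 to place 2, while *GCLC* went from place 4 to place 7 and *HMOX1* went to place 9 at D2, at 0.638 CPM per kb. With the GENCODE exonic lengths *NFE2L2* was instead at place 9 in PSC (2.24 CPM per kb), below *KEAP1*, at place 7 at D2 (2.92) and at place 4 in DE (11.4), where its libraries overlapped those of *NQO1*. These levels are too low for *NFE2L2*, since its reads were counted over the shorter length of the count table. *GCLC* kept places 4 and 7 in PSC and DE by either length.

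The genes for proteins that share NRF2's binding element changed in both directions. The list of CNC factors and small MAF proteins held 8 genes, of which 7 were tested, and in DE against PSC 3 were higher and 3 lower, beside 35.1% and 32.7% of all genes. *NFE2L1*, for the relative NRF1 that controls proteasome genes, was at 59.1 and 55.7 CPM in PSC and at 41.9 and 34.0 CPM in DE, and fell 1.51-fold (log2 fold change -0.59, adjusted p = 2.1e-05, edgeR). *NFE2L3*, for NRF3, fell 1.74-fold (-0.80, adjusted p = 5.9e-08, edgeR), from 69.8 and 76.4 CPM in PSC to 43.8 and 40.5 CPM in DE. With the lengths of the count table *NFE2L2* was below both relatives in PSC, with ratios to *NFE2L1* of 0.612 and 0.601 and to *NFE2L3* of 0.379 and 0.320, and above both in DE, with ratios of 3.87 and 5.61 and of 2.71 and 3.45. With the GENCODE exonic lengths the ratios in DE were 1.46 and 2.12 to *NFE2L1* and 1.02 and 1.30 to *NFE2L3*. These are low estimates, since the reads of *NFE2L2* were not counted over its whole GENCODE length.

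*BACH1*, for a repressor that competes for the same element and is released by haem, was at 59.3 and 57.0 CPM in PSC and at 75.9 and 72.9 CPM in DE, a rise of 1.28-fold (log2 fold change 0.36, adjusted p = 0.00249, edgeR), while it was at 49.5 and 57.6 CPM at D2 (-0.12, adjusted p = 0.35, edgeR). Its call in DE was lost with upper quartile scaling (adjusted p = 0.102, edgeR). *NFE2L2* per *BACH1* went from 0.795 and 0.764 in PSC to 2.78 and 3.41 in DE per length of the count table. With the GENCODE lengths, which exceed the counted bases of *NFE2L2*, the ratio was 1.05 and 1.29 in DE. *BACH2* and *MAFF*, both at low counts, rose in DE (log2 fold change 1.96, adjusted p = 2.3e-05, and 1.53, adjusted p = 0.00039, edgeR), from 9 and 15 to 48 and 63 counts and from 10 and 25 to 60 and 59 counts. The partner *MAFG*, the small MAF gene with the highest level per length, did not pass the test in DE (-0.14, adjusted p = 0.292, edgeR), and *MAFK* fell (-0.66, adjusted p = 0.0134, edgeR), a call lost with DESeq2 (adjusted p = 0.0729) and in edgeR without DE replicate 1 (0.113) or PSC replicate 2. *NFE2*, the founding member of the family, had 2 to 8 counts per library and was not tested.

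**Figure D3:**
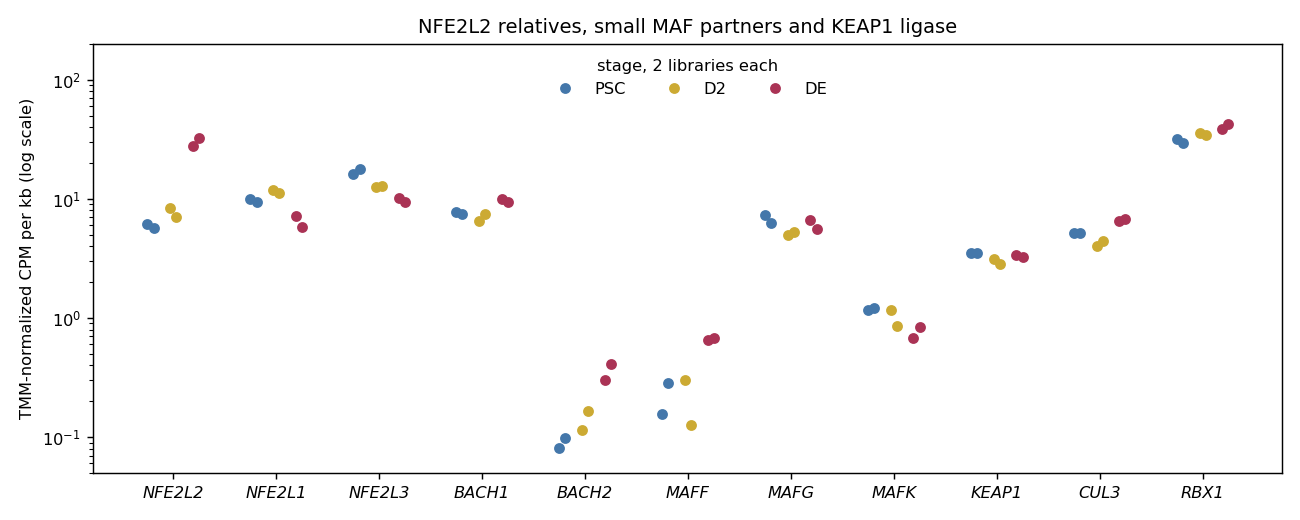
TMM-normalized CPM per kb of the length in the count table (log axis) of *NFE2L2*, its CNC relatives, the small MAF genes, *KEAP1* and 2 subunits of its ligase, with 2 libraries per stage as points (PSC, D2, DE). *NFE2L2* is below *NFE2L1* and *NFE2L3* in PSC (5.92 CPM per kb) and above them in DE (30.0 CPM per kb).

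Among 11 genes for the KEAP1 ligase and the other routes of NRF2 degradation, all were tested, and 7 were higher and 4 lower in DE against PSC, beside 35.1% and 32.7% of all genes. *CUL3*, the scaffold of the KEAP1 ligase, was at 59.6 and 59.6 CPM in PSC, 46.5 and 51.3 CPM at D2 and 74.8 and 77.8 CPM in DE (a fitted log2 change of 0.36 in DE against PSC, adjusted p = 0.00187, and -0.28 in D2 against PSC, adjusted p = 0.0176, edgeR). The first call was lost with upper quartile scaling (adjusted p = 0.0908, edgeR) and the second with library size scaling (0.216, edgeR), without either PSC replicate or without D2 replicate 1 (0.205, edgeR). *CUL1*, the scaffold of the SCF ligase that takes up NRF2 phosphorylated by GSK3, fell 2.48-fold in DE (-1.31, adjusted p = 3.6e-12, edgeR), from 131 and 131 to 49.5 and 56.5 CPM. The SCF substrate receptors *FBXW11* and *BTRC* rose, with log2 fold changes of 0.85 and 0.54, as did the kinase genes *GSK3A* (0.95) and *GSK3B* (0.63). *AMER1*, also known as WTX, which binds KEAP1 and β-catenin, fell (-1.28, adjusted p = 1.6e-06, edgeR), from 8.85 and 8.24 to 3.65 and 3.35 CPM. Because its protein binds KEAP1, *AMER1* could also be listed with the KEAP1 competitors that follow. The counts of both lists rest on that choice.

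Of 9 genes whose proteins compete with NRF2 for KEAP1 or stabilize NRF2, 4 were higher and 2 lower in DE, beside 35.1% and 32.7% of all genes. *SQSTM1*, for p62, which draws KEAP1 into autophagy, was at 19.0 and 22.4 CPM in PSC, 26.7 and 26.7 CPM at D2 and 58.7 and 54.0 CPM in DE. It rose 2.71-fold in DE against PSC (log2 fold change 1.44, standard error 0.11, adjusted p = 5.6e-12, edgeR), in the same order of stages as *NFE2L2*. *SESN2*, for sestrin 2, which acts with p62 on KEAP1, rose by 1.45 on the log2 scale, from 4.21 and 4.63 to 13.2 and 11.1 CPM. *PALB2*, a DNA repair gene whose protein also binds KEAP1, fell 2.22-fold, and *CDKN1A*, for p21, peaked at day 2, with 2.72 and 1.48 CPM in PSC, 9.52 and 9.78 CPM at D2 and 3.77 and 2.32 CPM in DE (2.25 in D2 against PSC, adjusted p = 2.4e-08, edgeR).

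Beyond the members, the wider list of the pathway held 113 genes, 35 regulators and 78 other targets, of which 105 were tested. In DE against PSC 49 were higher and 33 lower, 46.7% and 31.4% of those tested, beside 35.1% and 32.7% of all genes. With upper quartile scaling 40 were higher and 40 lower, beside 5378 and 6984 of all genes in place of 6366 and 5927, so the excess of higher over lower calls in the list depends on the scaling. By 2-fold or more, 20 were higher and 13 lower, beside 20.5% and 18.8% of all genes. The median log2 fold change was 0.22, and 0.02 over all genes. In D2 against PSC 27 were higher and 30 lower (34 and 22 with library size scaling), 25.7% and 28.6% of those tested, beside 25.9% and 24% of all genes, so these shares lay near the background. In DE against D2 47 were higher and 25 lower, 44.8% and 23.8%, beside 30% and 29.3% of all genes (41 and 33 with upper quartile scaling, beside 4253 and 6731 of all genes in place of 5434 and 5316). The medians were -0.10 and 0.26. The other targets alone, 71 of them tested, were split 31 higher and 23 lower in DE against PSC, 43.7% and 32.4%.

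The 5 highest rises of this list in DE were *SLC40A1*, *MGST2*, *ATF3*, *PTGR1* and *ABCC4*. *MGST2*, for a microsomal glutathione transferase, was at 11.5 and 11.9 CPM in PSC, 39.9 and 39.9 CPM at D2 and 483 and 526 CPM in DE, a rise of 43.1-fold (log2 fold change 5.43, standard error 0.12, adjusted p = 7.5e-24, edgeR). *PTGR1*, for a prostaglandin reductase that also clears reactive alkenals, rose 9.17-fold (3.20, standard error 0.11, adjusted p = 8.1e-20, edgeR), from 54.2 and 53.5 to 466 and 522 CPM. Both rose mainly after day 2. *ATF3*, a stress-response factor gene, went from 2.103 and 2.64 to 49.6 and 43.9 CPM (4.28, adjusted p = 8.2e-19, edgeR), and *ABCC4*, for the exporter MRP4, from 7.62 and 7.40 to 53.6 and 51.7 CPM (2.81, adjusted p = 8.2e-17, edgeR).

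The 5 strongest falls in DE were *CD36*, *SLC7A11*, *ABCG2*, *CUL1* and *AMER1*. *CD36*, for a fatty acid receptor, had 55 and 92 counts in PSC, 2 and 6 at D2 and 4 and 4 in DE (log2 fold change -4.39, adjusted p = 3.8e-10, edgeR). *ABCG2*, for an exporter of haem precursors and drugs, was at 4.12 and 4.12 CPM in PSC, 10.8 and 9.13 CPM at D2 and 0.852 and 1.74 CPM in DE (1.27 in D2 against PSC and -1.67 in DE against PSC, adjusted p = 1.3e-05 and 1.2e-05, edgeR). Of the 5 exporter genes tested, 4 were lower in DE, all by 2-fold or more, *ABCC1*, *ABCC2*, *ABCC5* and *ABCG2*, and 1, *ABCC4*, was higher, beside 32.7% of all genes lower, 18.8% lower by 2-fold and 35.1% higher.

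**Figure D4:**
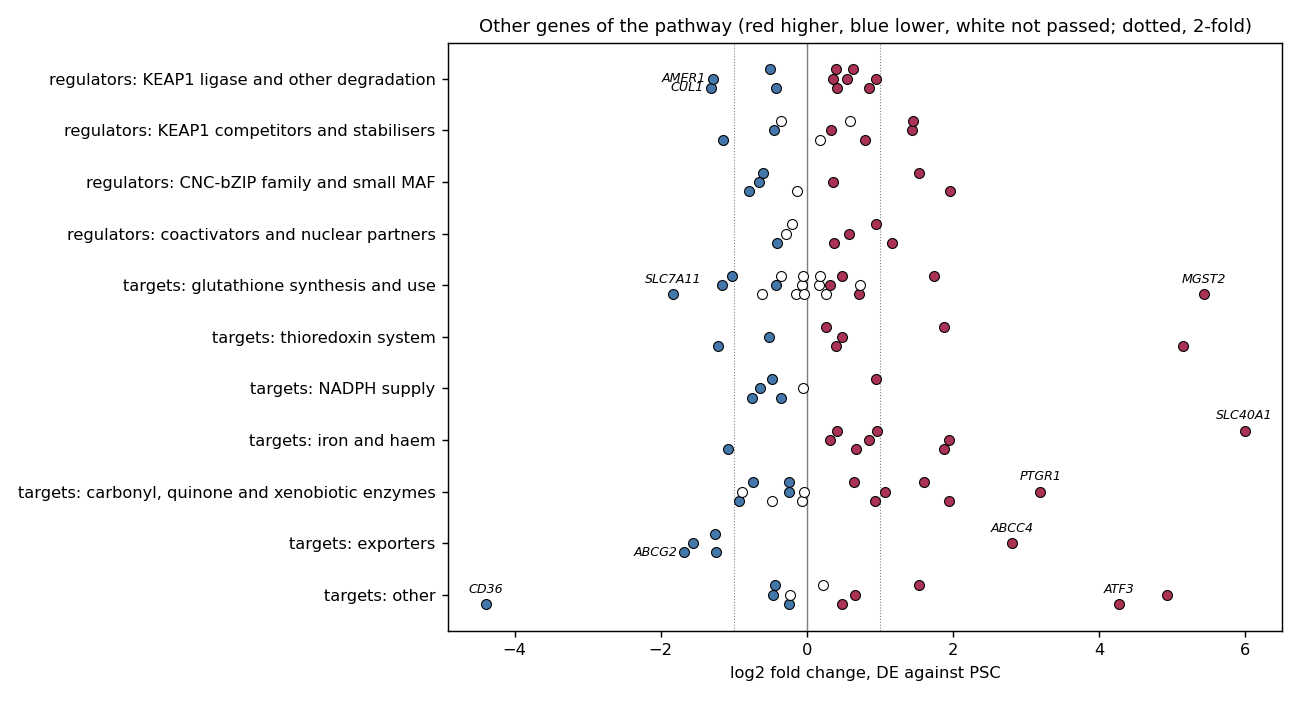
Log2 fold change in DE against PSC (x axis) of 105 other pathway genes by group, as points: red is higher and blue lower at an adjusted p under 0.05, white did not pass, and dotted lines mark 2-fold; labelled are the 5 highest rises and 5 strongest falls among genes with at least 5 CPM in a stage. Of the 105 genes, 49 were higher and 33 lower, and the points near 5 without a label are *TXNRD2* and *OSGIN1*, whose PSC libraries held 0 and 1 counts.

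Genes of iron and haem handling had the highest share of rises among the 11 groups of the list. Of 9 genes, all tested, 8 were higher and 1, *ABCB6*, lower in DE against PSC, 88.9% higher beside 35.1% of all genes, and the median log2 fold change was 0.85. The call of *ABCB6* (-1.08) was lost without PSC replicate 2 or DE replicate 1 (-0.73, adjusted p = 0.0912, edgeR). Among the 8 rises, that of *FTL* lay mostly in DE replicate 2, with 639 and 600 CPM in PSC and 650 and 887 CPM in DE. At D2 3 of them were higher than in PSC and none was lower, beside 25.9% and 24% of all genes. *FTH1*, the heavy chain of ferritin, was at 23.0 and 28.8 CPM in PSC, 47.7 and 43.1 CPM at D2 and 100 and 101 CPM in DE, a rise of 3.86-fold (1.95, standard error 0.11, adjusted p = 4.5e-15, edgeR). *FTH1* and *FTL* have many processed copies in the genome, so their levels depend on how multiply mapped reads were counted, which is not given in the sources used here.

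*SLC40A1*, for ferroportin, which exports iron from cells, had 0 and 10 counts in PSC, 3 and 5 at D2 and 400 and 367 in DE, and so was high in DE alone (log2 fold change 5.99 in DE against PSC, adjusted p = 5.8e-16, edgeR, and 5.21 to 11.5 when a library was left out). *SLC48A1*, for a transporter that brings haem out of endosomes, did the reverse of *HMOX1* at day 2. It was at 1.31 and 1.35 CPM in PSC, 12.9 and 9.19 CPM at D2 and 5.36 and 4.50 CPM in DE (3.04 in D2 against PSC, adjusted p = 4.8e-11, edgeR). The biliverdin reductase genes *BLVRA* and *BLVRB*, which act on the product of haem oxygenase, rose in DE by 0.96 and 0.85 on the log2 scale. *HMOX2*, for the constitutive haem oxygenase, rose by 0.67 in DE, from 15.4 and 15.5 to 22.04 and 27.3 CPM, and was at 18.4 and 15.3 CPM at D2, where *HMOX1* was at its lowest.

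In glutathione synthesis the gene for cystine uptake fell. *SLC7A11*, the light chain of the cystine-glutamate antiporter, was at 97.2 and 106 CPM in PSC, 34.0 and 39.8 CPM at D2 and 31.3 and 25.9 CPM in DE. It fell 2.76-fold in D2 against PSC (log2 fold change -1.46, standard error 0.11, adjusted p = 5.0e-12, edgeR) and 3.55-fold in DE against PSC (-1.83, standard error 0.11, adjusted p = 1.9e-14, edgeR). Its drop at day 2 came together with those of *GCLM* and *HMOX1*. *SLC3A2*, the heavy chain, was at 67.7 and 75.9 CPM in PSC and at 80.1 and 82.2 CPM in DE (0.17, adjusted p = 0.12, edgeR), and *GSS*, for the second enzyme of the synthesis, was at 12.4 and 11.8 CPM and at 12.4 and 11.0 CPM (-0.04, adjusted p = 0.82, edgeR).

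Of 20 genes of glutathione synthesis and use outside the members, 19 were tested, and 5 were higher and 4 lower in DE, 26.3% and 21.1%, beside 35.1% and 32.7% of all genes. Their median log2 fold change was -0.04. *MGST1*, for a microsomal transferase, fell in DE (-1.03, adjusted p = 1.2e-09, edgeR), from 603 and 535 to 279 and 279 CPM. *GSTO1*, for an omega-class transferase, peaked at day 2, with 89.0 and 81.0 CPM in PSC, 270 and 289 CPM at D2 and 128 and 152 CPM in DE (a fitted log2 change of 1.72 in D2 against PSC, adjusted p = 7.3e-14, edgeR). *GSTM4* had its lowest level there, at 7.54 and 8.75, 3.02 and 3.11, and 6.27 and 5.92 CPM in the same order (-1.42, adjusted p = 1.4e-06, edgeR). Reads of *GSTM4* may be split with close relatives of the GSTM family.

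The 4 genes whose windows hold TGACTCAGC did not move alike. In DE against PSC *ME1*, for malic enzyme, fell (log2 fold change -0.75, adjusted p = 0.00016, edgeR), while *GSTP1*, *SLC3A2* and *PIR* did not pass the test (0.26, 0.17 and 0.22). At day 2, 3 of the 4 were called lower than in PSC, beside 24% of all genes, and 1 of these calls, that of *GSTP1*, was not firm. *PIR*, for the iron-binding nuclear protein pirin, was at 13.3 and 14.1 CPM in PSC, 5.45 and 6.99 CPM at D2 and 14.4 and 17.6 CPM in DE (-1.14 in D2 against PSC, adjusted p = 1.8e-06, edgeR). *ME1* was at 11.8 and 14.5, 6.37 and 7.25, and 8.22 and 7.46 CPM, and *GSTP1*, for the pi-class transferase, at 697 and 666, 561 and 484, and 689 and 938 CPM. The fall of *GSTP1* at day 2 (-0.38) was lost with DESeq2 and in edgeR without PSC replicate 1 or D2 replicate 2 (-0.28, adjusted p = 0.183, edgeR).

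Several genes that supply NADPH, which glutathione and thioredoxin reductases consume, were lower in DE against PSC. *TALDO1* and *TKT*, for enzymes of the non-oxidative pentose phosphate path, had log2 fold changes of -0.64 and -0.48, and *IDH1*, for the cytosolic isocitrate dehydrogenase, and *ME1* had log2 fold changes of -0.35 and -0.75, all 4 called lower by edgeR, beside 32.7% of all genes. The call of *IDH1* was lost without PSC replicate 1 (adjusted p = 0.0593, edgeR). *PGD* did not pass the test in DE (log2 fold change -0.05). Of these 5 genes, *TALDO1*, *PGD* and *ME1* were lower at D2 than in PSC (log2 fold changes -0.72, -0.50 and -0.96), beside 24% of all genes.

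In the thioredoxin system, with 7 genes beside the members, 5 were higher and 2 lower in DE, beside 35.1% and 32.7% of all genes. *TXN*, for thioredoxin itself, was at 195 and 176 CPM in PSC, 257 and 254 CPM at D2 and 234 and 257 CPM in DE (a fitted log2 change of 0.40 in DE against PSC, adjusted p = 0.0007, edgeR). *TXNIP*, whose protein binds and blocks thioredoxin, rose at day 2 and then fell below its starting level. It was at 20.8 and 21.6 CPM in PSC, 63.1 and 49.9 CPM at D2 and 8.40 and 9.78 CPM in DE (1.41 in D2 against PSC, adjusted p = 1.2e-10, and -1.22 in DE against PSC, adjusted p = 1.9e-08, edgeR). Per length, *TXN* per *TXNIP* was 33.7 and 29.2 in PSC, 14.6 and 18.2 at D2 and 99.8 and 94.2 in DE.

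**Figure D5:**
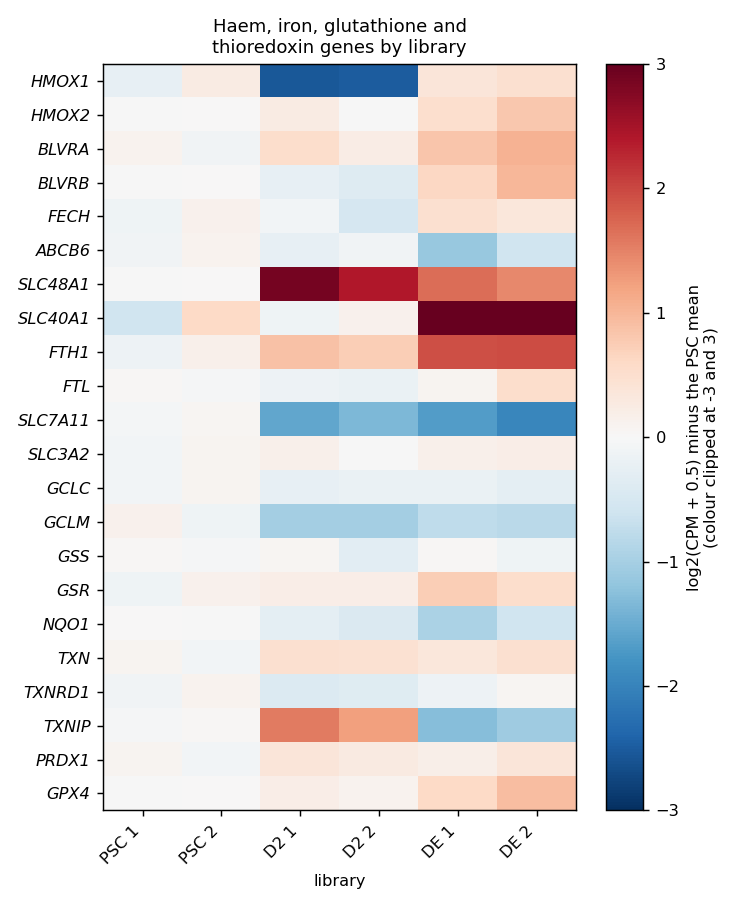
Heat map of log2(CPM + 0.5) minus the PSC mean (colour, clipped at -3 and 3) for 22 genes of haem, iron, glutathione and thioredoxin metabolism (rows) in the 6 libraries (columns). *HMOX1* is deep blue in the D2 libraries alone, *SLC7A11* and *GCLM* are blue at D2 and in DE, and *SLC40A1* and *FTH1* are reddest in DE.

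*GPX4* and *TXNRD1* are selenoproteins, which carry selenocysteine at their active site. Of 25 selenoprotein genes, these 2 included, 23 were tested, and 14 were higher and 2 lower in DE against PSC, 60.9% and 8.70% beside 35.1% and 32.7% of all genes. The median log2 fold change was 0.49. *SELENOP*, for the secreted selenium carrier, was at 22.5 and 21.6 CPM in PSC, 31.5 and 28.4 CPM at D2 and 73.7 and 84.9 CPM in DE (a fitted log2 change of 1.85, adjusted p = 1.5e-14, edgeR). *GPX3*, for the extracellular glutathione peroxidase, rose from 7.01 and 8.75 to 23.9 and 24.4 CPM (3.03-fold, adjusted p = 1.5e-10, edgeR), and *DIO3*, for a deiodinase that inactivates thyroid hormone, went from 1 and 0 counts to 362 and 332 counts, at least 95.2-fold higher against a floor of 3 counts per library. *SELENOM* fell (-1.78, adjusted p = 3.1e-07, edgeR), from 7.71 and 6.82 to 1.77 and 2.44 CPM. The other gene that fell was *SELENOV*, which had low counts.

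Markers of other lineages also moved with the stages, and their part in these results was not tested. For the counts that follow, 35.1% of all genes were higher and 32.7% lower in DE against PSC. Of 7 neuroectoderm markers, 3 were tested and 2 were higher in DE, with *PAX6* at the highest CPM, while the third, *ZIC1*, fell from 26.5 and 24.8 to 10.4 and 8.94 CPM (log2 fold change -1.40). The sum of the 7 was 29.3 and 27.9 CPM in PSC, 30.8 and 25.4 CPM at D2 and 161 and 158 CPM in DE, while *SOX1*, a defining marker of neuroectoderm, had 0 to 3 counts in every library. Of 7 trophoblast and amnion markers, 4 were tested, 2 were higher in DE and 1, *KRT7*, was lower, from 13 and 13 counts in PSC to 0 and 0 in DE. This list had *GATA3* at the highest CPM, *CGB5* at 0 in all libraries, and a sum of 2.37 and 3.02 CPM in PSC, 12.8 and 12.4 CPM at D2 and 142 and 124 CPM in DE. For 5 listed markers of visceral and yolk sac endoderm the sum was 2.98 and 2.45 CPM in PSC, 4.86 and 3.04 CPM at D2 and 16.7 and 23.5 CPM in DE, with *APOA1* at the highest CPM, 2 of 3 tested higher in DE, and the other, *AFP*, lower, from 19 and 29 counts in PSC to 1 in each DE library. For 8 mesoderm markers, with *KDR* at the highest CPM and *MSGN1* and *MEOX1* at 0 in all libraries, the sum was 142 and 140 CPM in PSC, 181 and 178 CPM at D2 and 21.0 and 21.9 CPM in DE. That sum was nearly all *KDR*, at 141 and 139 CPM in PSC and 17.5 and 19.2 CPM in DE, and the other 2 markers tested, *TBX6* and *HAND1*, were higher in DE by 2-fold or more, at low counts. Of 9 genes of apoptosis and stress, 8 rose and 1 fell in DE, for a sum of 121 and 127 CPM in PSC, 156 and 155 CPM at D2 and 221 and 214 CPM in DE, and *PMAIP1*, which had the highest CPM, was the 1 that fell. *ATF3* belongs to this list as well as to that of the targets.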

How the data were processed

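RNA was taken from the precipitate left after metabolite extraction, per the study's methods. The authors mapped reads to GRCh38 with HISAT2 2.1.1 and counted them per gene with featureCounts. The annotation, strand setting and treatment of multiply mapped reads are not given in the sources used here. The deposited values are raw counts of 59050 genes with their lengths, 21221 of them without a count.

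From these counts, genes were filtered with filterByExpr (18126 kept), scaled by TMM, and tested with edgeR 4.0.16 (R 4.3.3, limma 3.58.1): a quasi-likelihood fit over the 6 libraries with stage as the factor, 3 residual degrees of freedom, and Benjamini-Hochberg adjustment over all genes tested. A call is an adjusted p under 0.05, and a 2-fold call also an absolute log2 fold change of at least 1. Standard errors are the log2 fold change over the root of F. DESeq2 1.42.0, other scalings and filters, a replicate block, 2-stage fits, left-out libraries and TPM ratios were alternatives. The 2 libraries of each stage differed beyond counting noise (chi-square per degree of freedom 3.74, 3.71 and 7.87 in PSC, D2 and DE), so none was counted as a duplicate.

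Genes named beyond the members are, from the pathway list, the 5 highest rises and 5 strongest falls in DE and at D2 against PSC (adjusted p under 0.05, at least 5 CPM on average in a stage, no overlap between stages), all CNC and MAF genes, *GSS*, *SLC7A11*, *CUL3*, *SQSTM1*, *TXN*, *TXNIP*, the 3 highest rises and falls among selenoproteins, and the 5 genes most like *NFE2L2*, of which 1 is not reported here. Other genes were named after their values were seen. The members and lists were chosen with earlier results of these data known. The values of 1 gene of the pathway list are not reported here.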

Additional observations from a re-analysis of the deposited data

How the results depend on the processing

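Of 360 values of single members under 15 other settings, 331 kept their direction and their side of the threshold. Of the rest, 16 lost a call, 5 gained one and 8 turned in direction, all 8 in comparisons where the gene had no call. The turned values were, for DE against PSC, *KEAP1* at 0.0158 and *TXNRD1* at 0.0338 with library size scaling, and *TXNRD1* at 0.0620 without PSC replicate 2 and 0.0675 without DE replicate 1 (-0.154 to 0.0675 with any library left out); for DE against D2, *KEAP1* at -0.0166 with upper quartile scaling, and *GCLC* at 0.00634 without a filter, 0.0151 without D2 replicate 2 and 0.0417 without DE replicate 2 (-0.0571 to 0.0417 with any library left out). The count of members higher by 2-fold in DE against PSC was 1, *GPX4*, by the TPM ratio with 0.1 or 1 added, in place of 0. The count lower by 2-fold in D2 against PSC was 1 with library size scaling and by either TPM ratio, in place of 2, and 1 to 2 with a library left out; it was 1 without PSC replicate 1. The count lower in DE against D2 was 0 to 1 with a library left out, and 0 without DE replicate 1. Library size scaling moved the median of all genes to 0.11 in DE against PSC and 0.13 in D2 against PSC, and upper quartile scaling to -0.15 in DE against PSC and -0.19 in DE against D2. Libraries with the same replicate number showed no shared deviation over the genes tested (correlations -0.0088, -0.027 and -0.021). With 2 libraries per stage this cannot show whether they came from the same run. A replicate block left the counts of members at 3 higher and 3 lower in DE against PSC, 0 and 4 in D2 against PSC, and 4 and 1 in DE against D2. For the wider list the block gave 47 higher and 28 lower in DE against PSC, and it changed no call of *KEAP1* or a target. Levels per GENCODE exonic length and the fit of *SRXN1* without a filter were added after seeing the data. The lengths moved the ratios of *NFE2L2* to other genes by 2.64 times, and no log2 fold change. The GENCODE length of *NFE2L2* exceeds the length over which its reads were counted, so these ratios are low estimates.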

Other observations

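At day 2 *UCHL1*, for a ubiquitin hydrolase abundant in neurons, was at 506 and 508 CPM in PSC, 246 and 235 CPM at D2 and 400 and 454 CPM in DE (a fitted log2 change of -1.08 in D2 against PSC, adjusted p = 9.9e-10, edgeR). Its course, low at D2 and higher on either side, resembled those of *HMOX1*, *PIR* and *TXNRD1*. *GPX2*, for an epithelial glutathione peroxidase, did the same at low levels, with 2.72 and 3.02 CPM in PSC, 0.853 and 0.518 CPM at D2 and 2.31 and 2.19 CPM in DE (-2.06 in D2 against PSC, adjusted p = 3.8e-05, edgeR). *GSTT2B* and *CBR1*, for a theta-class transferase and a carbonyl reductase, went the opposite way. *CBR1* was at 16.6 and 19.4 CPM in PSC, 38.2 and 33.0 CPM at D2 and 16.1 and 18.5 CPM in DE (0.98 in D2 against PSC, adjusted p = 2.3e-07, edgeR), and *GSTT2B* at 0.438 and 1.03, 4.72 and 5.18, and 0.670 and 0.322 CPM (2.67, adjusted p = 5.3e-07, edgeR). These 4 genes were named after their values were seen, apart from *UCHL1*.

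Of the genes that make or place selenocysteine, 6 of 8 listed were found in the table and tested. In DE against PSC 1 was higher, 1 was lower and 4 did not pass the test, beside 35.1% of all genes higher and 32.7% lower. The 1 called lower was *SCLY*, for selenocysteine lyase. It went from 8.59 and 7.40 CPM in PSC to 4.59 and 4.27 CPM at D2 and 1.10 and 1.22 CPM in DE (a fitted log2 change of -2.77 in DE against PSC, adjusted p = 1.4e-10, edgeR).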
